A study of Homo sapiens with 14 samples.

Results

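The comparison is that of OVCAR4 cells transfected with a pool of small interfering RNAs (siRNAs) against SOX17 with OVCAR4 cells transfected with non-targeting pools. The libraries were chosen by the pool named in their labels, which gave 6 of the 14 libraries of the series. An siRNA directs the degradation of a transcript that it matches. OVCAR4 is an established human line of high-grade serous ovarian cancer, grown in RPMI-1640 with serum and insulin. By its title, the series is about predicting master transcription factors of cancers from expression data. The group siSOX17 (n = 2) received a Dharmacon pool against SOX17, siNT1 (n = 2) the ON-TARGETplus non-targeting control pool and siNT2 (n = 2) a custom non-targeting pool, and siNT1 and siNT2 together are called the controls. Each culture began with 300000 cells, reverse transfection used siRNA at 120 nM, the medium was changed after 24 hours and RNA was collected at 72 hours. The labels do not say whether that time ran from transfection or from the new medium. A single line was used, each target had a single pool, and no label states that paired libraries of 1 group were transfected independently. The p-values thus measure the spread between these libraries, which may be technical.

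SOX17 is a transcription factor of the SOX F group, which also holds SOX7 and SOX18, and binds short AT-rich DNA sites through its HMG box. It is known for the formation of the definitive endoderm and for arterial endothelium in embryos, where it counters Wnt and beta-catenin signalling and acts upstream of Notch genes. In the female reproductive tract it marks the secretory epithelium of the fallopian tube and, with PAX8, serous ovarian cancer.

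SOX17 RNA was lower in the libraries named for its knockdown. It stood at 15.7 and 13.1 CPM in siSOX17, against 114 and 104 CPM in siNT1 and 105 and 119 CPM in siNT2. Both siSOX17 libraries lay far below the 4 control libraries, and 13.0% of the control mean was left (log2 fold change -2.94 ± 0.11, adjusted p = 1.21e-13). The unit CPM stands for read counts scaled to a common library size, a value after ± is the standard error (SE) for a log2 fold change and the SD for a mean, and adjusted p-values are those of the edgeR quasi-likelihood test, by the method of Benjamini and Hochberg, over 21032 of the 58219 genes in the table, which passed a filter on low counts. RNA was taken from whole cultures, so fewer cells with a transcript and less of it per cell cannot be told apart.

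The other factors targeted in the series also moved. MECOM (ENSG00000085276.17, chromosome 3 at 169083499 to 169663618, minus strand, hg38), which encodes the zinc-finger factor EVI1, stood at 45.6 and 43.6 CPM in siSOX17, against 131 and 130.2 CPM in siNT1 and 133 and 125 CPM in siNT2. The groups did not overlap, and siSOX17 held 34.3% of the control level (log2 fold change -1.54 ± 0.14, adjusted p = 2.01e-08). PAX8 (ENSG00000125618.16, chromosome 2 at 113215997 to 113278950, minus strand), the paired-box factor of the Mullerian lineage, stood at 266 and 273 CPM in siSOX17, against 196 and 192 CPM in siNT1 and 206 and 225 CPM in siNT2. It was higher in both siSOX17 libraries than in any control library, by a log2 fold change of 0.4 ± 0.07 (adjusted p = 6.94e-05). PAX8-AS1, which overlaps PAX8 on the opposite strand, averaged 54.7 CPM in siSOX17 and 40.3 CPM in the controls, and reads of the pair cannot be told apart where the counting did not use strand. WT1 was near the detection floor, with 15 counts over both siSOX17 libraries and 75 over the 4 control libraries. Its log2 fold change of -1.03 ± 0.41 (adjusted p = 0.0436) lost its call in 16 of 22 other settings, among them each one that left out a siSOX17 or control library, and the adjusted p then ranged between 0.0504 and 0.302.

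**Figure D1:**
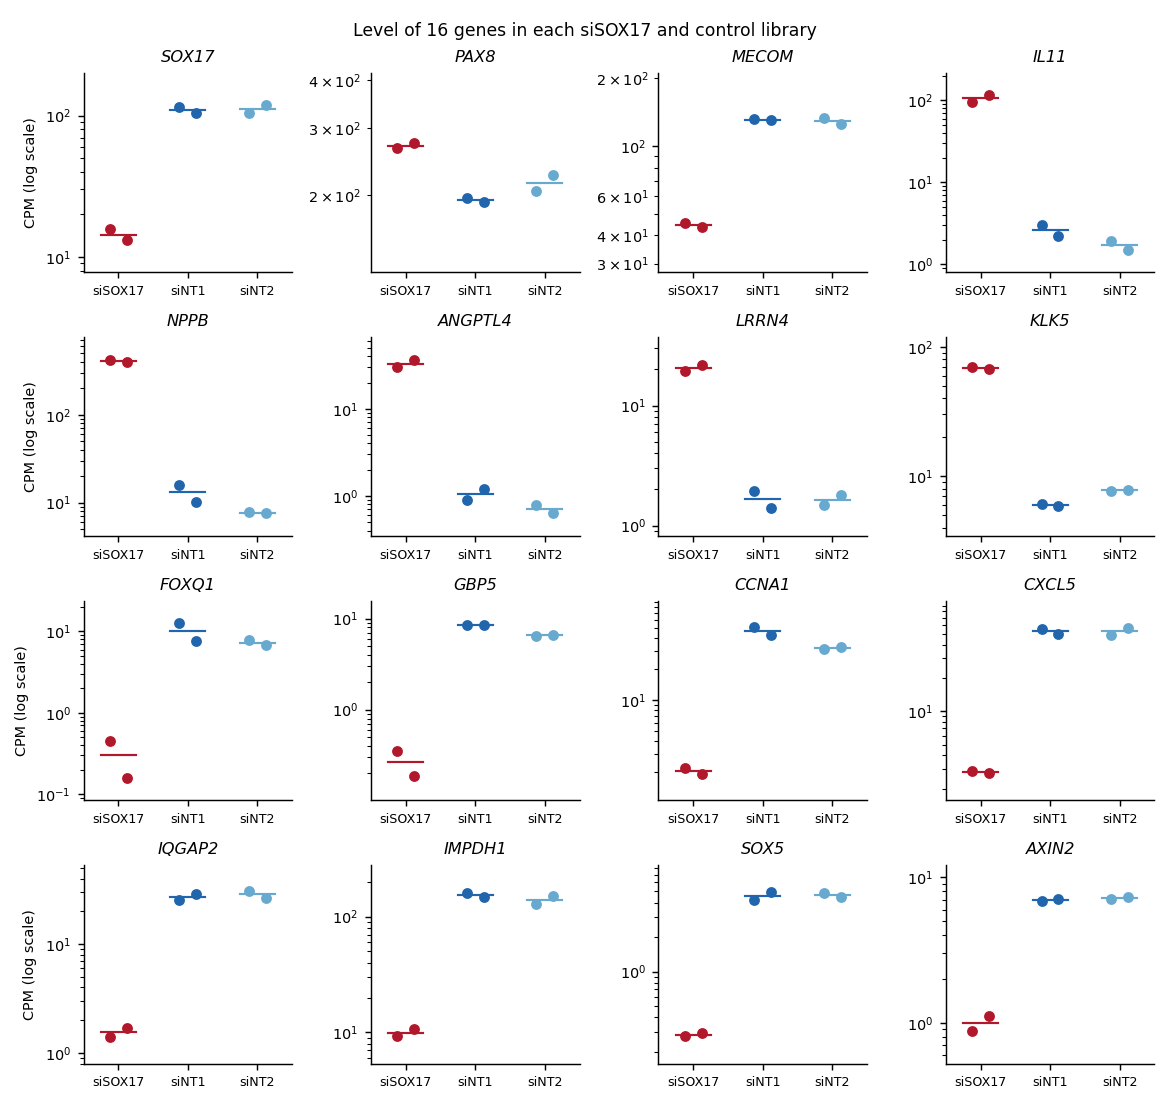
Level of 16 genes in CPM (log axis, a separate range for each gene) in the 2 siSOX17, 2 siNT1 and 2 siNT2 libraries; a point is a library and a bar the mean of its group. SOX17 stood at 15.7 and 13.1 CPM in siSOX17, below all 4 control libraries, and in none of the 16 genes did a siSOX17 library fall within the range of the controls.

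More than 50% of the tested genes differed between siSOX17 and the controls. At an adjusted p under 0.05, 11069 of 21032 genes (52.6%) were called, 5716 of them higher in siSOX17 (27.2%) and 5353 lower (25.5%). At least 2-fold changes numbered 1755 higher (8.34%) and 1314 lower (6.25%). Both siSOX17 libraries lay above all 4 controls for 6590 genes (31.3%) and below them for 6475 (30.8%). The median log2 fold change over all tested genes was -0.006. The control pools differed in 63 genes (0.3%), 51 of them higher in siNT1 (0.242%) and 12 lower (0.0571%), with 1608 (7.65%) at an unadjusted p under 0.05. The count of 63 was 11 without siNT1 replicate 1, 17 without siNT1 replicate 2, 33 without siNT2 replicate 1, 14 without siNT2 replicate 2, 153 with DESeq2 and 232 with no filter on low counts. The libraries held 41593921 to 43386482 counts in siSOX17 and 40832825 to 49059114 in the controls, and genes of the mitochondrial chromosome took 10 to 10.2% of the counts in siSOX17 and 5.34 to 6.13% in the controls. Counts of list members called are read against the percentages of genes called. Among the 14708 protein-coding genes tested those were 29.9% higher and 29.9% lower.

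**Figure D2:**
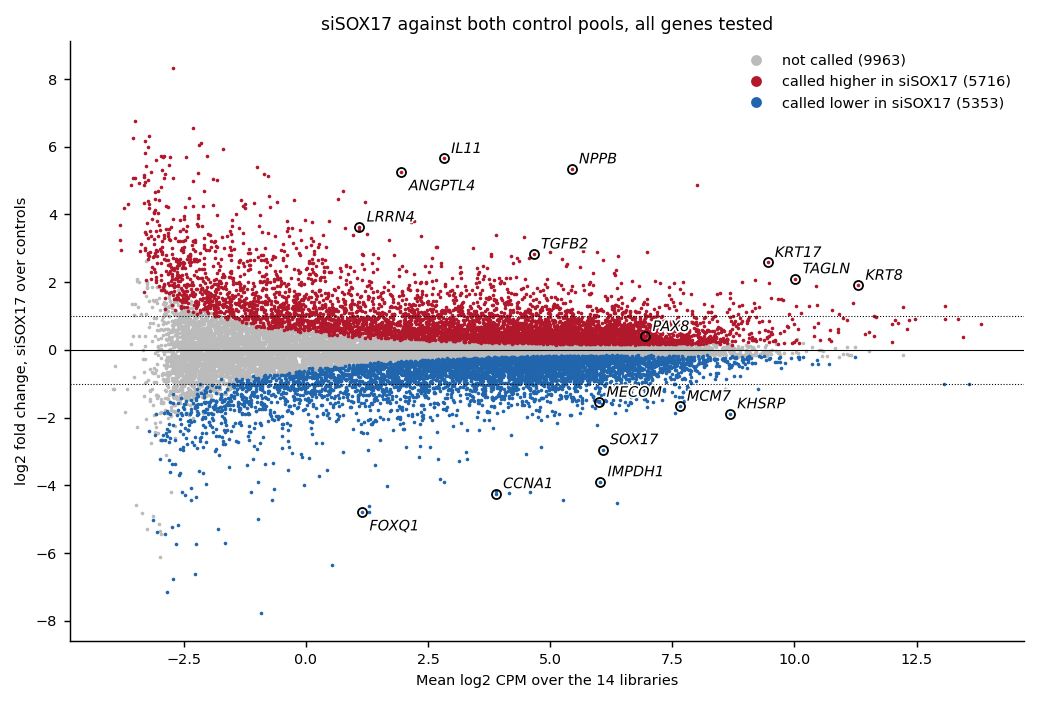
Log2 fold change of siSOX17 over the controls against the mean log2 CPM over the 14 libraries, 1 point for each of 21032 tested genes. Red genes (5716) were called higher in siSOX17, blue genes (5353) lower, and dotted lines mark 2-fold; circled genes carry their names.

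Among called protein-coding genes whose log2 CPM averaged 1 or more over the 14 libraries, and whose siSOX17 and control libraries did not overlap, the largest increases were those of IL11, NPPB and ANGPTL4, which encode secreted proteins. IL11 (ENSG00000095752.6, chromosome 19 at 55364389 to 55370463, minus strand), a cytokine of the gp130 receptor family, stood at 96.4 and 115 CPM in siSOX17, against 3.02 and 2.19 CPM in siNT1 and 1.9 and 1.5 CPM in siNT2. Its log2 fold change was 5.66 ± 0.11 (adjusted p = 2.62e-17), a 49.2-fold difference between means. NPPB (chromosome 1 at 11857464 to 11858931, minus strand), which encodes B-type natriuretic peptide, a hormone of stressed heart muscle, stood at 417 and 399.6 CPM in siSOX17, against 16.1 and 10.1 CPM in siNT1 and 7.76 and 7.66 CPM in siNT2. ANGPTL4 (chromosome 19 at 8363289 to 8374373, plus strand), an inhibitor of lipoprotein lipase, stood at 29.9 and 36.2 CPM in siSOX17, against 0.896 and 1.19 CPM in siNT1 and 0.782 and 0.638 CPM in siNT2. The controls of these 3 genes were low in every library, and neither siSOX17 library came near them (log2 fold changes 5.35 ± 0.16 for NPPB and 5.25 ± 0.12 for ANGPTL4). FGF1, an acidic fibroblast growth factor, rose by 3.79 ± 0.17, TGFB2, a ligand of the TGF-beta receptors, by 2.84 ± 0.08, and TGFBI, a matrix protein that this signal induces, by 2.9 ± 0.08. Secreted proteases and their relatives rose too, with the kallikrein KLK5 at 3.34 ± 0.17, the serine protease PRSS23 at 2.92 ± 0.07, the carboxypeptidase CPA4 at 2.89 ± 0.15 and the metalloprotease ADAMTS12 at 2.83 ± 0.12. AC011483.2 overlaps KLK5 and the kallikrein gene KLK6 on the opposite strand and rose by 1.88, so reads of these genes may be shared.

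Membrane and cytoplasmic proteins were among the other large increases. LRRN4, a leucine-rich repeat protein known from mesothelium, stood at 19.2 and 21.6 CPM in siSOX17, against 1.93 and 1.41 CPM in siNT1 and 1.48 and 1.78 CPM in siNT2 (log2 fold change 3.63 ± 0.14). TMEM40, a membrane protein of unsettled function, rose by 4.36 ± 0.17, and ABAT, the enzyme that breaks down GABA, by 3.81 ± 0.12. KCNK3, a background potassium channel, rose by 3.43 ± 0.18, ADGRF1, an adhesion receptor, by 3.05 ± 0.11, and the synaptotagmin-like SYTL2 by 2.89 ± 0.17. SCEL, a precursor of the cornified envelope, rose by 3.01 ± 0.15. CD274, which encodes the immune checkpoint ligand PD-L1, stood at 6.59 and 11.2 CPM in siSOX17, against 1.3 and 1.56 CPM in siNT1 and 1.08 and 1.21 CPM in siNT2. Its siSOX17 libraries differed from each other more than the controls did, yet both lay above every control (log2 fold change 2.79 ± 0.19). Adjusted p-values of the increases named in these paragraphs were 5.97e-10 or lower.

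Above the same level, the largest decreases were those of FOXQ1 and GBP5. FOXQ1 (chromosome 6 at 1312440 to 1314748, plus strand), a forkhead factor, stood at 0.448 and 0.159 CPM in siSOX17, against 12.7 and 7.68 CPM in siNT1 and 7.84 and 6.8 CPM in siNT2. GBP5 (chromosome 1 at 89258950 to 89272804, minus strand), a guanylate-binding protein of the interferon gamma response, stood at 0.348 and 0.186 CPM in siSOX17, against 8.49 and 8.6 CPM in siNT1 and 6.51 and 6.69 CPM in siNT2. CCNA1 (chromosome 13 at 36431520 to 36442882, plus strand), the germline-type cyclin A1, stood at 2.21 and 1.91 CPM in siSOX17, against 51.7 and 43.0 CPM in siNT1 and 31.6 and 33.0 CPM in siNT2. In all 3 genes the siSOX17 libraries lay far below every control library, with log2 fold changes of -4.8 ± 0.33 for FOXQ1, -4.79 ± 0.21 for GBP5 and -4.24 ± 0.16 for CCNA1. IMPDH1 (chromosome 7 at 128392277 to 128410252, minus strand), an enzyme of guanine nucleotide synthesis, stood at 9.28 and 10.6 CPM in siSOX17, against 162 and 148 CPM in siNT1 and 129.8 and 151 CPM in siNT2. Its control libraries varied little, and siSOX17 held 6.74% of their mean (log2 fold change -3.89 ± 0.11, adjusted p = 2.99e-15). The cytoskeletal scaffold IQGAP2 stood at 1.39 and 1.7 CPM in siSOX17 and 25.5 to 30.5 CPM in the controls, so that 5.53% of the control mean was left (-4.18 ± 0.16). CA2, a cytosolic carbonic anhydrase, fell with a log2 fold change of -4.21 ± 0.14, and FLI1, an ETS factor of blood and endothelium, with -3.8 ± 0.19.

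Further decreases touched signalling inhibitors and secreted peptides. GREM1, a secreted BMP antagonist, fell with a log2 fold change of -3.9 ± 0.20 and GAS1, a membrane protein that binds hedgehog ligands, with -3.16 ± 0.26. GREM1 stood at 0.871 and 1.46 CPM in siSOX17, against 10.8 and 14.2 CPM in siNT1 and 22.6 and 25.2 CPM in siNT2. Its control pools differed from each other (log2 difference of siNT1 over siNT2 -0.93, adjusted p = 0.0101), and both siSOX17 libraries lay below all of their libraries. The neuropeptide gene NMU (-3.07 ± 0.10), NELL2 (-3.01 ± 0.17), which encodes a secreted glycoprotein, the microfibril gene MFAP5 (-2.86 ± 0.12) and the plasma membrane calcium pump ATP2B2 (-3.29 ± 0.21) fell as well. IL33, an alarmin cytokine below that level, held 2 counts over both siSOX17 libraries and 441 over the 4 control libraries. That is 1.1% of the control level, with an exact 95% interval of 0.133 to 4% that covers counting error only.

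Sequence upstream of these genes was searched for the SOX hexamer ACAATG, or CATTGT on the other strand. The 250 bases before the transcription start were taken from RefSeq (GRCh38.p14) for 11269 of the 14708 protein-coding genes tested, and the first listed start was used for each gene. The hexamer was found in 594 of them (5.27%). It was found in 55 of 809 genes higher by at least 2-fold (6.8%), in 43 of 692 lower by at least 2-fold (6.21%) and in 247 of 4490 not called (5.5%). Of the 25 largest increases 20 had a window, and 2 of these held it, FGF1 and MYL7. Of the 25 largest decreases 13 had a window, and 2 held it, CXCL5 and SOX5. These counts are too small to be read against the share over all genes. Their windows are shown 5′ to 3′ on the strand of the gene, all 4 of them on minus, at chr5:142698071-142698320 for FGF1, chr7:44141333-44141582 for MYL7, chr4:73998678-73998927 for CXCL5 and chr12:24562492-24562741 for SOX5, with the hexamer in capitals.
FGF1: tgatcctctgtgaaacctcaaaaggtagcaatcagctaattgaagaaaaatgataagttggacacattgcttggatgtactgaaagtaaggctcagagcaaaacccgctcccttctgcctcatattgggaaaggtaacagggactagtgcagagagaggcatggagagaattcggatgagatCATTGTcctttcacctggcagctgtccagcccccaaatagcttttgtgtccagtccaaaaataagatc
MYL7: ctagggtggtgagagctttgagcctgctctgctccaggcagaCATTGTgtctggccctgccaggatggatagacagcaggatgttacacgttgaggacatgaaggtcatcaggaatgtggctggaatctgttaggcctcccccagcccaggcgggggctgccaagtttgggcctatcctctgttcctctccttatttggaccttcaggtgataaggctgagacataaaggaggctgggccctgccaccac
CXCL5: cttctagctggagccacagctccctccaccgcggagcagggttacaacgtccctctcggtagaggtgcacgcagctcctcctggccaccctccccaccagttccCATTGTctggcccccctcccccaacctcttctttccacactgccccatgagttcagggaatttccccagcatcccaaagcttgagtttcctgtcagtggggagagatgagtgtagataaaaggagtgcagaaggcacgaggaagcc
SOX5: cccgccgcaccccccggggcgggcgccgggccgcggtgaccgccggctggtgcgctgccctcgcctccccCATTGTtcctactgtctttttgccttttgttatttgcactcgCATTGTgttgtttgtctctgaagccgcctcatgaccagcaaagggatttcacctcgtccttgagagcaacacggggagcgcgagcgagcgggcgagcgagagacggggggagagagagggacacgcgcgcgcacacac
FGF1, MYL7 and CXCL5 hold 1 hexamer each and SOX5 holds 2. The windows of FGF1 and MYL7 end where the counted genes begin. That of CXCL5 runs into the counted gene, which spans chr4:73995642-73998779. The SOX5 window lies far outside the counted gene, at chr12:23529500-23951032, and is thus not the sequence directly before it. A match is a string of letters in this window and does not show that the factor binds there.

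Relatives of SOX17 were mostly lower. Of 11 tested genes of the SOX family list (SOX17 itself is not a member), 8 fell and 2 rose, with a median log2 fold change of -1.19. SOX5, a SOX D factor of cartilage and neurons, stood at 0.274 and 0.292 CPM in siSOX17, against 4.17 and 4.9 CPM in siNT1 and 4.85 and 4.47 CPM in siNT2. Its siSOX17 libraries were alike and far under the controls (-4.01 ± 0.23). SOX8 (-2.9 ± 0.36), SOX11 (-1.4 ± 0.22), SOX12 (-1.19 ± 0.10), SOX13 (-0.99 ± 0.07) and SOX4 (-0.94 ± 0.09) fell, and SOX2, the pluripotency factor, held 6 counts in siSOX17 and 93 in the controls. The SOX F gene SOX18 fell with a log2 fold change of -1.32 ± 0.47, while SOX7 did not pass the count filter. SOX9, known from cartilage and duct progenitors, rose by 0.93 ± 0.15 and SOX6 by 1.5 ± 0.22.

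Lineage factors went both ways, and the share that rose was near the 27.2% of all tested genes that rose (25.5% fell). Of 22 Mullerian and serous lineage factors 6 rose and 9 fell (median -0.26), and the number that fell was 6 without siSOX17 replicate 1. GATA6, a zinc-finger factor of endoderm, stood at 10.4 and 7.85 CPM in siSOX17 and 22.1 to 31.4 CPM in the controls and fell with a log2 fold change of -1.44 ± 0.13. Both siSOX17 libraries lay below every control. The epithelial ETS factor EHF fell (-1.28 ± 0.17), as did KLF5 (-0.85 ± 0.07). Among 23 HOX cluster genes 14 fell and 2 rose (median -0.42), with HOXC8 at -1.79 ± 0.30 and HOXA11 at -1.13 ± 0.30. Of 24 surface and secreted markers of serous cancer 10 rose and 9 fell (median 0.16), with KLK6 at 1.79 ± 0.09 and WFDC2, which encodes the serum marker HE4, at -0.76 ± 0.11.

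Endoderm and endothelium are the settings in which SOX17 is best known, and genes of both were lower more often than higher. In the endoderm list 8 of 18 endoderm genes passed the count filter, and 4 of these fell and 0 rose. HHEX, a homeobox factor of foregut endoderm and blood vessels, stood at 1.17 and 1.67 CPM in siSOX17, against 7.17 and 6.41 CPM in siNT1 and 6.61 and 5.83 CPM in siNT2 (-2.2 ± 0.16). GSC held 1 count in siSOX17 and 49 in the controls. Of 16 endothelial genes 8 fell and 4 rose (median -0.60). PECAM1 (-1.39 ± 0.21), VWF (-0.98 ± 0.17) and ESAM (-1.94 ± 0.34) fell, and CLDN5, a tight-junction claudin of vessels, held 2 counts in siSOX17 and 82 in the controls. GJA5, an arterial connexin, rose by 5.13 ± 0.31 with 3.71 and 2.97 CPM in siSOX17 and 0.044 to 0.189 CPM in the controls, and the connexin GJA4 by 1.4 ± 0.28. GJA5 overlaps AC241644.3 on the opposite strand, which averaged 1.48 CPM in siSOX17 and 0.0276 CPM in the controls. The arterial ligand EFNB2 fell (-0.77 ± 0.08).

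Of 25 Wnt antagonists and Wnt response genes 13 fell and 10 rose (median -0.30), and targets stood on both sides. NOTUM, a secreted enzyme that inactivates Wnt proteins, stood at 3.11 and 1.59 CPM in siSOX17, against 21.8 and 20.0 CPM in siNT1 and 22.9 and 22.9 CPM in siNT2. AXIN2, a scaffold of the beta-catenin destruction complex and a common Wnt target, stood at 0.871 and 1.11 CPM in siSOX17, against 6.93 and 7.15 CPM in siNT1 and 7.13 and 7.31 CPM in siNT2. Controls of both genes were close to each other and well above siSOX17 (-3.21 ± 0.19 for NOTUM, -2.85 ± 0.15 for AXIN2). The target genes SP5 (-1.58 ± 0.40), NKD1 (-1.15 ± 0.23) and TCF7 (-1.12 ± 0.17) fell, and LGR5, a stem cell receptor, held 5 counts in siSOX17 and 125 in the controls. CTNNB1, which encodes beta-catenin, rose by 0.33 ± 0.07, the ligand WNT4 by 1.6 ± 0.15, RNF43, a feedback ligase that removes Wnt receptors, by 0.84 ± 0.09 and the dickkopf family gene DKK3 by 0.89 ± 0.09.

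Notch and BMP genes were lower more often than higher. Of 18 Notch genes 9 fell and 4 rose (median -0.48). The ligand DLL1 fell with 0.945 and 0.875 CPM in siSOX17 and 3.52 to 4.9 CPM in the controls (-2.19 ± 0.21), and the feedback inhibitor NRARP (-2.1 ± 0.19), the receptor NOTCH1 (-1.05 ± 0.11), the ligand JAG1 (-0.78 ± 0.08) and the target HEY1 (-0.93 ± 0.26) fell as well. NOTCH2 (0.85 ± 0.07) and NOTCH3 (0.67 ± 0.10) rose. Of 22 BMP genes 12 fell and 3 rose (median -0.46). The ligands BMP4 (-1.4 ± 0.11) and BMP6 (-0.87 ± 0.10), the transducer SMAD1 (-0.97 ± 0.11), the inhibitor SMAD6 (-0.92 ± 0.07) and the target genes ID1 (-0.91 ± 0.10), ID2 (-1.36 ± 0.14) and ID3 (-0.35 ± 0.10) fell, as did the antagonists GREM1 and FST, the last with 8 counts in siSOX17 and 199 in the controls. The type II receptor BMPR2 rose by 0.76 ± 0.08.

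Cytokine genes split by family. Of 24 interleukin and gp130 genes 12 rose and 5 fell (median 0.52), and the number that fell was 3 against siNT2 alone. Besides IL11, the ligands LIF (0.72 ± 0.10) and CLCF1 (0.56 ± 0.13) and the shared receptor gene IL6ST (0.56 ± 0.09) rose, while IL6 fell (-0.74 ± 0.18) with 23.9 and 21.0 CPM in siSOX17 and 26.9 to 56.5 CPM in the controls. Of 15 chemokines 9 fell and 2 rose (median -0.80), and 1 rose without siSOX17 replicate 1. CXCL5, which attracts neutrophils, stood at 2.86 and 2.76 CPM in siSOX17, against 55.7 and 49.8 CPM in siNT1 and 48.7 and 56.6 CPM in siNT2, and fell with a log2 fold change of -4.23 ± 0.40 (adjusted p = 3.51e-08). CXCL3 (-2.13 ± 0.38), CCL20 (-1.98 ± 0.34), CXCL2 (-1.48 ± 0.21) and CXCL12 (-0.8 ± 0.16) fell, and CCL5 rose by 1.68 ± 0.20. The interferon list had 19 of 37 genes higher and 5 lower (median 0.28), the lower ones numbering 1 without siSOX17 replicate 2. GBP1 (1.49 ± 0.07) and GBP3 (1.35 ± 0.09) rose in the same libraries in which GBP5 fell.

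**Figure D3:**
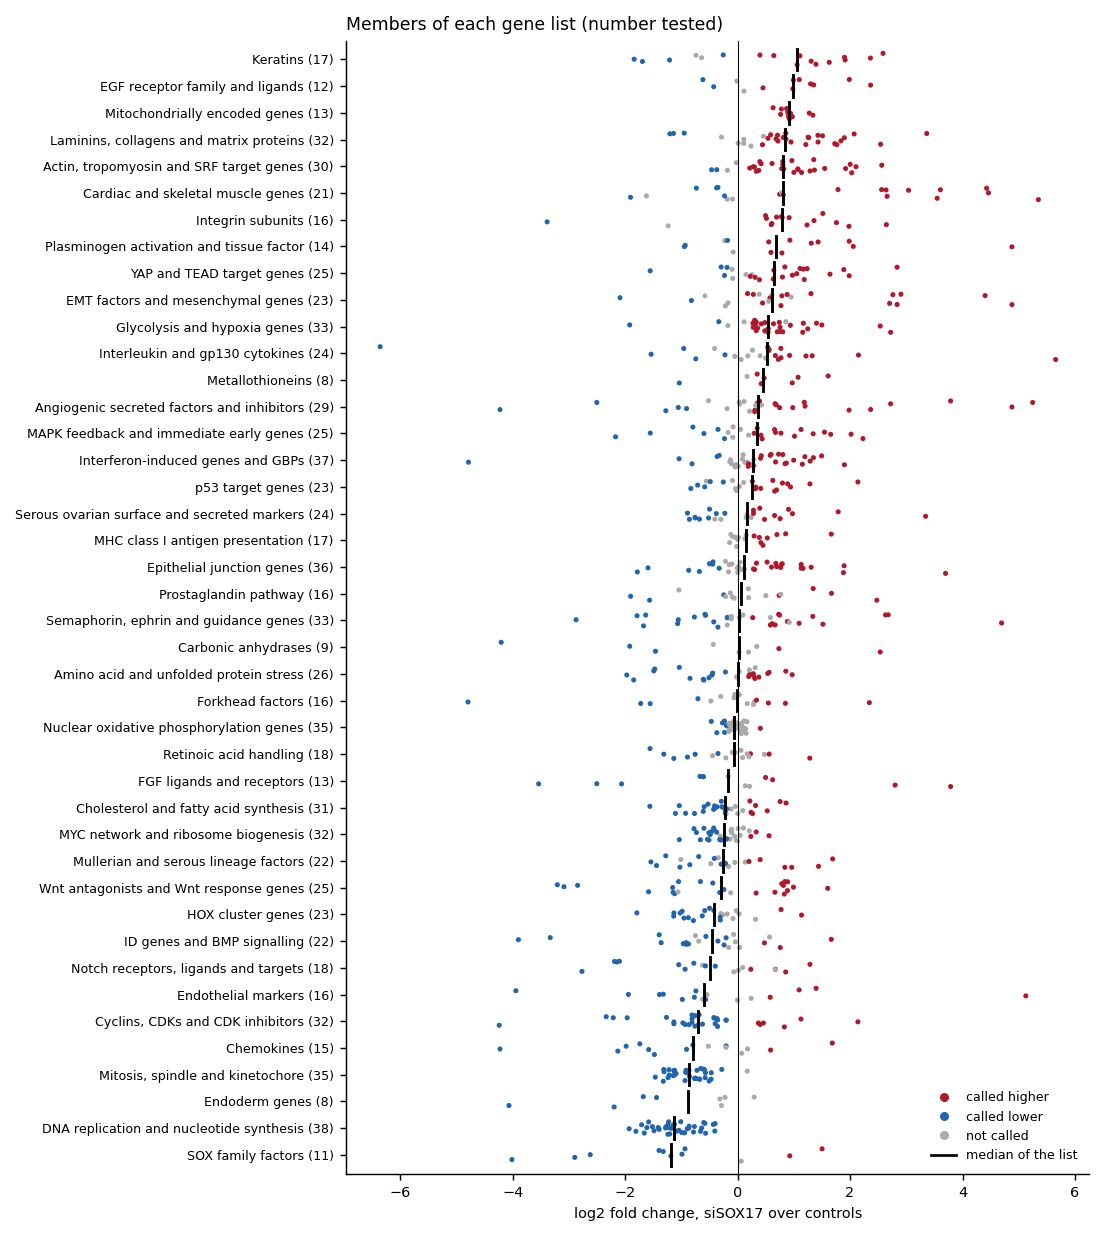
Log2 fold change of siSOX17 over the controls for the tested members of 42 gene lists, ordered by the list's median (black bar); red members were called higher, blue lower and grey not called, and the number tested stands beside each name. Keratins had a median of 1.06 at the top and the SOX family one of -1.19 at the bottom.

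Most genes of the actin cytoskeleton were higher. Of 30 genes of actin, tropomyosin and serum response factor targets 26 rose and 2 fell (median 0.81). TAGLN, the actin-bundling transgelin of smooth muscle, stood at 3053 and 2691 CPM in siSOX17, against 857 and 649 CPM in siNT1 and 607 and 576 CPM in siNT2. The myosin light chain MYL9 stood at 415 and 421 CPM in siSOX17, against 115 and 85.0 CPM in siNT1 and 99.6 and 110.4 CPM in siNT2. All siSOX17 libraries of these 2 genes were more than 3 times the highest control (2.11 ± 0.14 for TAGLN, 2.03 ± 0.13 for MYL9). PCSK7 overlaps TAGLN on the opposite strand and rose by 2.06. Reads of that pair cannot be told apart where the counting did not use strand. The actin nucleator LMOD1 (2.56 ± 0.17), the tropomyosin TPM1 (2.0 ± 0.08), the adaptor FHL2 (1.92 ± 0.08), caldesmon CALD1 (1.55 ± 0.08), alpha-actinin ACTN1 (1.29 ± 0.08) and the non-muscle myosin MYH9 (1.0 ± 0.08) rose. SRF itself, the factor that gives the list its name, was not called (-0.02 ± 0.08). MYH10 (-0.37 ± 0.07) and FHL1 (-0.46 ± 0.11) fell.

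Genes of striated muscle were among the higher ones. Of 32 listed, 21 passed the filter, and 12 of these rose and 5 fell (median 0.81), the lower ones numbering 2 without siSOX17 replicate 2. MYL7, the atrial myosin light chain, stood at 8.9 and 6.05 CPM in siSOX17, against 0.825 and 0.625 CPM in siNT1 and 0.661 and 0.462 CPM in siNT2. Every control was under 1 CPM and both siSOX17 libraries above 6 (3.55 ± 0.25). TRIM55 (4.46 ± 0.22), MYOZ1 (4.43 ± 0.38) and XIRP1 (3.61 ± 0.29), proteins of muscle, and the smooth muscle actin ACTA2 (3.04 ± 0.16) rose. The defining heart genes MYH6, MYH7 and NPPA did not pass the filter. Reads of ACTA2 cannot be told apart from those of ACTA2-AS1, which overlaps it and rose by 3.23 ± 0.18, nor from FAS on the opposite strand, where the counting did not use strand.

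Most integrin and matrix genes rose. Of 16 integrin subunits 14 rose and 1 fell (median 0.79). ITGB6, an epithelial subunit of the receptor that activates latent TGF-beta, rose by 2.65 ± 0.09, the fibronectin receptor subunit ITGA5 by 1.76 ± 0.09 and the collagen receptor subunit ITGA2 by 1.98 ± 0.17. ITGA9 went the other way, with 0.597 and 0.371 CPM in siSOX17, against 3.98 and 5.3 CPM in siNT1 and 5.27 and 6.03 CPM in siNT2 (-3.39 ± 0.28). Of 32 laminin, collagen and matrix genes 23 rose and 3 fell (median 0.84). FN1, which encodes fibronectin, stood at 17.0 and 17.1 CPM in siSOX17, against 1.44 and 1.64 CPM in siNT1 and 2.02 and 1.5 CPM in siNT2. Its siSOX17 libraries were nearly equal and 10.3 times the control mean (3.36 ± 0.17). COL8A1 (2.54 ± 0.14), the crosslinking enzyme LOXL2 (2.07 ± 0.11) and TNC (1.73 ± 0.11) rose, while the nidogens NID1 (-1.2 ± 0.30) and NID2 (-1.14 ± 0.21) and versican VCAN (-0.95 ± 0.09) fell. Of 14 genes of plasminogen activation and tissue factor 9 rose and 3 fell, the lower ones numbering 0 without siSOX17 replicate 2. Those that rose included F3, which starts coagulation (1.98 ± 0.10), and the urokinase gene PLAU (0.93 ± 0.09).

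Most keratins rose. Of 17 keratins 11 rose and 4 fell (median 1.06), and the summed keratin level was 16200 CPM in each siSOX17 library and 4410 to 5360 CPM in the controls. KRT8 stood at 5288 and 5309.9 CPM in siSOX17, against 1562 and 1279 CPM in siNT1 and 1374 and 1416 CPM in siNT2. KRT18, which pairs with it in filaments, averaged 2891 ± 146 CPM in siSOX17 and 774 ± 74.7 CPM in the controls. The spread between libraries was small beside the difference for both (1.91 ± 0.11 for KRT8, 1.9 ± 0.13 for KRT18). The genes lie next to each other and overlap on opposite strands. KRT7 (1.39 ± 0.09), KRT19 (1.31 ± 0.09) and the stress keratin KRT17 (2.59 ± 0.14) rose, while KRT6A (-1.69 ± 0.29), KRT13 (-1.21 ± 0.21) and KRT23 (-1.84 ± 0.14) fell. KRT6A stood at 0.696 and 1.72 CPM in siSOX17, against 6.86 and 6.0 CPM in siNT1 and 2.04 and 2.66 CPM in siNT2. Its control pools differed (log2 difference of siNT1 over siNT2 1.45, adjusted p = 0.0174), and siSOX17 lay below both.

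Among both junction genes and mesenchymal genes more members rose than fell. Of 36 epithelial junction genes 17 rose and 8 fell (median 0.10). CDH1, which encodes E-cadherin, rose by 0.68 ± 0.08, the desmosomal cadherin DSC2 by 1.16 ± 0.09 and the claudin CLDN1 by 1.13 ± 0.07. CDH6, a kidney-type cadherin found in serous cancer, fell with 49.1 and 47.1 CPM in siSOX17 and 156 to 178 CPM in the controls (-1.78 ± 0.08), and the connexin GJB2 fell (-1.59 ± 0.08). Of 23 genes linked to epithelial-mesenchymal transition 14 rose and 2 fell (median 0.61), the lower ones numbering 1 with a filter of 1 CPM in 2 libraries and 4 with no filter. TGFBR1 (1.3 ± 0.11) and PMEPA1 (2.76 ± 0.09) rose, while SNAI1 (-0.17 ± 0.10), VIM (0.38 ± 0.16) and CDH2 (-0.22 ± 0.12) were not called. Of 25 YAP and TEAD target genes 17 rose and 4 fell (median 0.64), the lower ones numbering 1 against siNT2 alone. CCN1 (1.19 ± 0.09), a matricellular protein, NT5E (1.89 ± 0.08), an ectonucleotidase, and LATS2 (0.97 ± 0.07), a kinase that restrains YAP, rose.

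**Figure D4:**
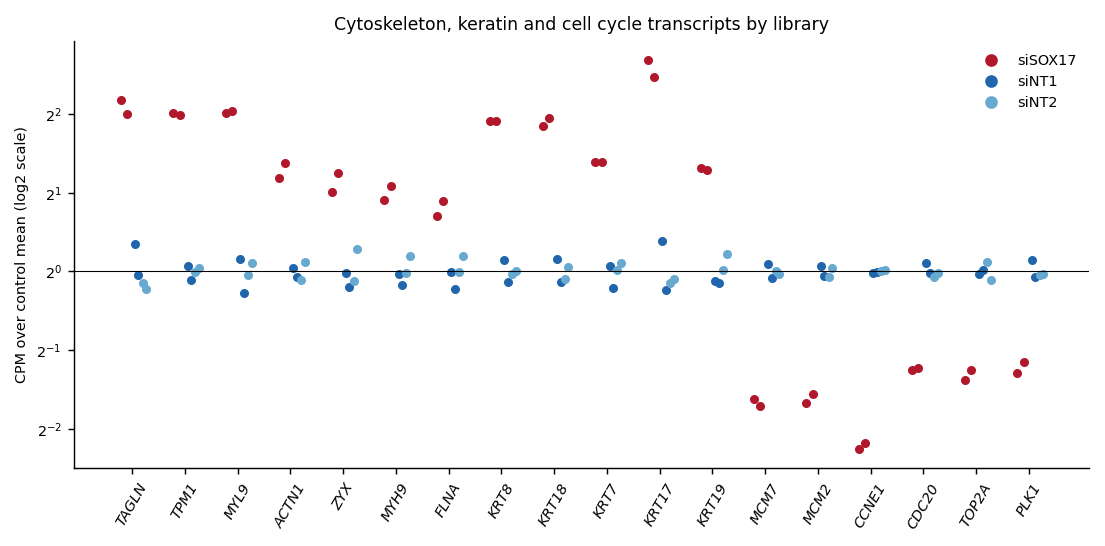
Level of 18 genes in each library as a ratio to the control mean (log2 axis), with siSOX17 in red and the control pools in blue. The 12 cytoskeleton and keratin genes sit above every control in both siSOX17 libraries, and the 6 cell cycle genes below.

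Most cell cycle genes were lower. All 38 genes of DNA replication and nucleotide synthesis fell, 23 of them by at least 2-fold (median -1.13), where 25.5% of all tested genes fell. MCM6, a subunit of the replicative helicase, stood at 24.8 and 25.7 CPM in siSOX17, against 103 and 100.2 CPM in siNT1 and 94.3 and 87.1 CPM in siNT2. CDC45, which joins that helicase, stood at 14.9 and 13.7 CPM in siSOX17 and 48.4 to 51.5 CPM in the controls. In both genes the siSOX17 libraries lay together and the controls lay together (-1.93 ± 0.08 for MCM6, -1.81 ± 0.08 for CDC45). The licensing factor CDT1 (-1.71 ± 0.12), thymidylate synthase TYMS (-1.28 ± 0.07) and the clamp PCNA (-0.99 ± 0.06) fell, and the smallest decrease was that of thymidine kinase TK1 (-0.4 ± 0.08). Of 35 mitosis and kinetochore genes 34 fell (median -0.86), among them INCENP (-1.46 ± 0.08), TOP2A (-1.31 ± 0.08) and PLK1 (-1.22 ± 0.08). ANLN, which encodes the cytokinesis protein anillin, was the exception at 0.17 ± 0.07 (adjusted p = 0.0547).

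The cyclin list was called in full, 26 lower and 6 higher of 32. CCNE1, cyclin E1 of the G1/S transition, stood at 26.3 and 27.7 CPM in siSOX17, against 124 and 124 CPM in siNT1 and 126 and 127 CPM in siNT2. Its controls were nearly equal, and siSOX17 held 21.6% of their mean (-2.21 ± 0.08). E2F2 (-1.96 ± 0.14) and E2F1 (-1.27 ± 0.10), the factors that drive S-phase genes, CDK4 (-0.81 ± 0.07) and CDK2 (-0.97 ± 0.08) fell. CDKN1A, the inhibitor p21, stood at 42.1 and 40.2 CPM in siSOX17 and 8.42 to 10.0 CPM in the controls and rose by 2.14 ± 0.10, whereas CDKN1C, the inhibitor p57, fell (-2.34 ± 0.20). Cyclin D1, CCND1, rose by 0.83 ± 0.08 and its partner CDK6 by 1.13 ± 0.09. Of 23 p53 target genes 12 rose and 5 fell (median 0.26), with MDM2, the p53 ligase, at -0.83 ± 0.10. FAS stood at 1.29 ± 0.13, but it overlaps ACTA2 on the opposite strand, which rose by 3.04 ± 0.16, and reads of the pair cannot be told apart where the counting did not use strand. MYC fell (-0.51 ± 0.08), and of 32 genes of the MYC network and ribosome biogenesis 16 fell and 3 rose (median -0.24).

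Energy metabolism genes differed by genome and pathway. All 13 protein-coding genes of the mitochondrial chromosome rose (median 0.90, range 0.63 ± 0.11 for MT-ND3 to 1.34 ± 0.10 for MT-ND6). MT-ND5, a subunit of complex I, stood at 6939 and 7892 CPM in siSOX17, against 3059 and 2924 CPM in siNT1 and 2822 and 3456 CPM in siNT2. Both siSOX17 libraries lay above all 4 controls (1.27 ± 0.09). Of 35 nuclear genes of the same complexes 28 were not called, 6 fell and 1 rose (median -0.06), and without siSOX17 replicate 2 the numbers were 2 lower and 3 higher. The share of counts from the mitochondrial chromosome rose with these genes. In the 8 libraries of the other targeting pools of the series it was 7.91 to 11%, also above every control library, so a high share was not particular to siSOX17. The part of that share in the result was not tested beyond a fit without that chromosome, which called 5528 genes higher and 5541 lower. Of 33 glycolysis and hypoxia genes 28 rose and 2 fell (median 0.54). ADM, the vasoactive peptide adrenomedullin, stood at 71.0 and 74.5 CPM in siSOX17, against 11.3 and 10.6 CPM in siNT1 and 10.3 and 12.0 CPM in siNT2 (2.72 ± 0.09). CA9, the carbonic anhydrase induced by hypoxia, rose by 2.54 ± 0.21, BNIP3 by 1.5 ± 0.08 and the glucose carrier SLC2A1 by 1.16 ± 0.07. CA12 fell (-1.92 ± 0.09), as did hexokinase HK1 (-0.33 ± 0.07).

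Biosynthetic and stress genes fell in part. Of 31 cholesterol and fatty acid genes 19 fell and 7 rose (median -0.23), and without siSOX17 replicate 2 the numbers were 12 and 3. The fatty acid desaturases FADS1 (-1.11 ± 0.07) and FADS2 (-1.04 ± 0.09) fell. These genes overlap on opposite strands, and FADS2 also overlaps the replication gene FEN1 (log2 fold change -0.90) on the same strand, so their reads may be shared. The amino acid and unfolded protein list had 12 of 26 genes lower and 10 higher (median 0.01), the higher ones numbering 6 against siNT2 alone. The members that fell most serve amino acid supply. SLC7A11, the cystine carrier, stood at 6.47 and 5.33 CPM in siSOX17, against 23.3 and 18.9 CPM in siNT1 and 28.8 and 22.1 CPM in siNT2. PHGDH, which begins serine synthesis, averaged 100.2 ± 0.232 CPM in siSOX17 and 361 ± 18.9 CPM in the controls. Neither gene overlapped between siSOX17 and the controls (-1.97 ± 0.16 for SLC7A11, -1.85 ± 0.09 for PHGDH). Asparagine synthetase ASNS (-1.49 ± 0.08) and ATF4 (-0.85 ± 0.07), the factor that drives these genes, fell, while the endoplasmic reticulum chaperone HSPA5 rose by 0.38 ± 0.07.

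Most EGF family genes rose, and those of the FGF family went both ways. Of 12 EGF family genes 8 rose and 2 fell (median 0.99). HBEGF stood at 137 and 149 CPM in siSOX17 and 24.5 to 30.7 CPM in the controls and rose by 2.37 ± 0.09, TGFA by 1.99 ± 0.13 and the receptor EGFR by 0.45 ± 0.09, while ERBB3 (-0.42 ± 0.07) and ERBB4 (-0.62 ± 0.11) fell. Of 13 FGF genes 4 rose and 6 fell. FGF18 fell with 13.8 and 10.6 CPM in siSOX17 and 59.4 to 76.5 CPM in the controls (-2.5 ± 0.11) and FGF9 with a log2 fold change of -3.54 ± 0.31. Of 25 MAPK feedback and immediate early genes 14 rose and 6 fell (median 0.35), the lower ones numbering 4 without siSOX17 replicate 2. The AP-1 subunit FOSL1 (2.23 ± 0.12) and the phosphatase DUSP4 (2.02 ± 0.20) rose, and EGR3 held 7 counts in siSOX17 and 79 in the controls. Of 33 semaphorin, ephrin and other guidance genes 13 rose and 12 fell, where 27.2% of all tested genes rose and 25.5% fell. Among them SEMA5B stood at 4.7 ± 0.23, SEMA3C at 2.63 ± 0.08 and SEMA6B at -2.87 ± 0.16.

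Markers of other cell types were read in the same libraries. Of 10 immune markers PTPRC, CD3E, CD3D, MS4A1, LYZ and ITGAM did not pass the filter, and CSF1R, a receptor of macrophages, rose by 2.48 ± 0.13. Of 10 fibroblast markers COL3A1 and POSTN did not pass it, 4 of the 8 others rose (1 with a filter of 1 CPM in 2 libraries) and 0 fell, and their summed level was 62.2 to 67.3 CPM in siSOX17 and 35.4 to 45.7 CPM in the controls. Endothelial markers summed to 13.1 to 13.2 CPM in siSOX17 and 19.8 to 22.3 CPM in the controls, ciliated cell markers to 32.2 to 34 CPM in siSOX17 and 39.4 to 46.2 CPM in the controls, and squamous markers to 7.36 to 7.83 CPM in siSOX17 and 4.39 to 10.9 CPM in the controls. Of 8 endothelial markers tested 0 rose and 5 fell (median -0.86), and of 9 ciliated cell markers 3 rose and 4 fell (median 0.16). Of 5 squamous markers tested 3 rose, each by at least 2-fold, and 1, KRT6A, fell (median 1.63), so their sum hides changes both ways. Cardiomyocyte markers summed to 418 to 439 CPM in siSOX17 and 16.9 to 27 CPM in the controls. NPPB made up nearly all of the sum in siSOX17, with 417 and 399.6 CPM, and less of it in the controls, with 7.66 to 16.1 CPM. Mesothelial markers summed to 109 to 132 CPM in siSOX17 and 123 to 155 CPM in the controls, and of 7 tested 1 rose, LRRN4, and 3 fell (median -0.44). The number that fell was 0 with DESeq2, and the number that rose was 2 without siNT1 replicate 1. Secretory cell markers of the fallopian tube, the epithelium that fits the label of the line, summed to 5700 to 5760 CPM in siSOX17 and 2560 to 2890 CPM in the controls. Of its 8 tested members 5 rose and 2 fell (1 with DESeq2), with a median of 0.34. Only 1, KRT7, rose by at least 2-fold (1.39). EPCAM rose by 0.28 ± 0.06, and WFDC2 was among the members that fell. Whether any of these sums had a part in the changes described above was not tested.

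Against the PAX8 pool, the siSOX17 libraries were set in a contrast without control libraries. The group siPAX8 (n = 2) received a Dharmacon pool against PAX8 under the same conditions. Of 21032 genes 7853 (37.3%) differed, 4155 of them higher in siSOX17 (19.8%) and 3698 lower (17.6%). IL11 stood at 96.4 and 115 CPM in siSOX17, against 21.5 and 22.4 CPM in siPAX8 (log2 difference 2.27 ± 0.11, adjusted p = 1.61e-11). LRRN4 stood at 19.2 and 21.6 CPM in siSOX17, against 1.36 and 1.67 CPM in siPAX8 (3.75 ± 0.18). ADAMTS12 stood at 11.7 and 11.3 CPM in siSOX17, against 1.44 and 1.43 CPM in siPAX8 (3.00 ± 0.16). For these 3 genes both siSOX17 libraries were higher than both siPAX8 libraries. CRYAB, a small heat shock protein, was higher by 3.69 ± 0.13 and RAPGEF3, an exchange factor that senses cyclic AMP, by 3.69 ± 0.11. Genes lower in siSOX17 included IQGAP2 with 1.39 and 1.7 CPM in siSOX17, against 33.7 and 40.5 CPM in siPAX8 (-4.59 ± 0.16), SOX5 (-4.73 ± 0.24), FLI1 (-4.50 ± 0.19), CXCL5 (-4.29 ± 0.42) and GBP5 (-4.29 ± 0.23). KRT6A stood at 0.696 and 1.72 CPM in siSOX17, against 36.8 and 51.4 CPM in siPAX8 (-5.20 ± 0.27, adjusted p = 3.3e-11). Its mean in the controls was 4.39 CPM, so this difference includes a higher level under the PAX8 pool. The difference for FGF1 was -0.01 ± 0.17 (adjusted p = 0.976) and for CPA4 -0.44 ± 0.18 (adjusted p = 0.0663), and neither passed the test.

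Since MECOM RNA was itself lower in siSOX17, the libraries were also set against siMECOM (n = 2), which received a Dharmacon pool against MECOM. MECOM stood at 45.6 and 43.6 CPM in siSOX17, against 8.76 and 16.4 CPM in siMECOM (1.82 ± 0.16). Of 21032 genes 10175 (48.4%) differed, 5031 higher in siSOX17 (23.9%) and 5144 lower (24.5%). IL11 stood at 96.4 and 115 CPM in siSOX17, against 0.594 and 0.818 CPM in siMECOM (7.21 ± 0.17, adjusted p = 7.42e-16). NPPB (4.61 ± 0.20), LDB3, a protein of the muscle Z-disc (4.39 ± 0.15), and IGFBP3, which binds insulin-like growth factors (3.91 ± 0.21), were higher in siSOX17. CCNA1 stood at 2.21 and 1.91 CPM in siSOX17, against 99.5 and 130.3 CPM in siMECOM (-5.80 ± 0.17). It was low in both siSOX17 libraries and high in both siMECOM libraries. FN1 stood at 17.0 and 17.1 CPM in siSOX17, against 51.0 and 78.0 CPM in siMECOM and was lower in siSOX17 (-1.92 ± 0.17). CA2 (-5.74 ± 0.15), SOX5 (-5.62 ± 0.23), KRT6A (-5.55 ± 0.27) and KRT13 (-5.11 ± 0.20) were lower too. The means of CA2 were 194 CPM in siMECOM and 67.2 CPM in the controls, and those of SOX5 14.1 and 4.6 CPM. For KRT6A they were 56.2 and 4.39 CPM, and for KRT13 28.1 and 1.89 CPM. SOX17 itself averaged 229 CPM in siMECOM, 14.4 CPM in siSOX17 and 111 CPM in the controls. These differences thus include changes under the MECOM pool.

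**Figure D5:**
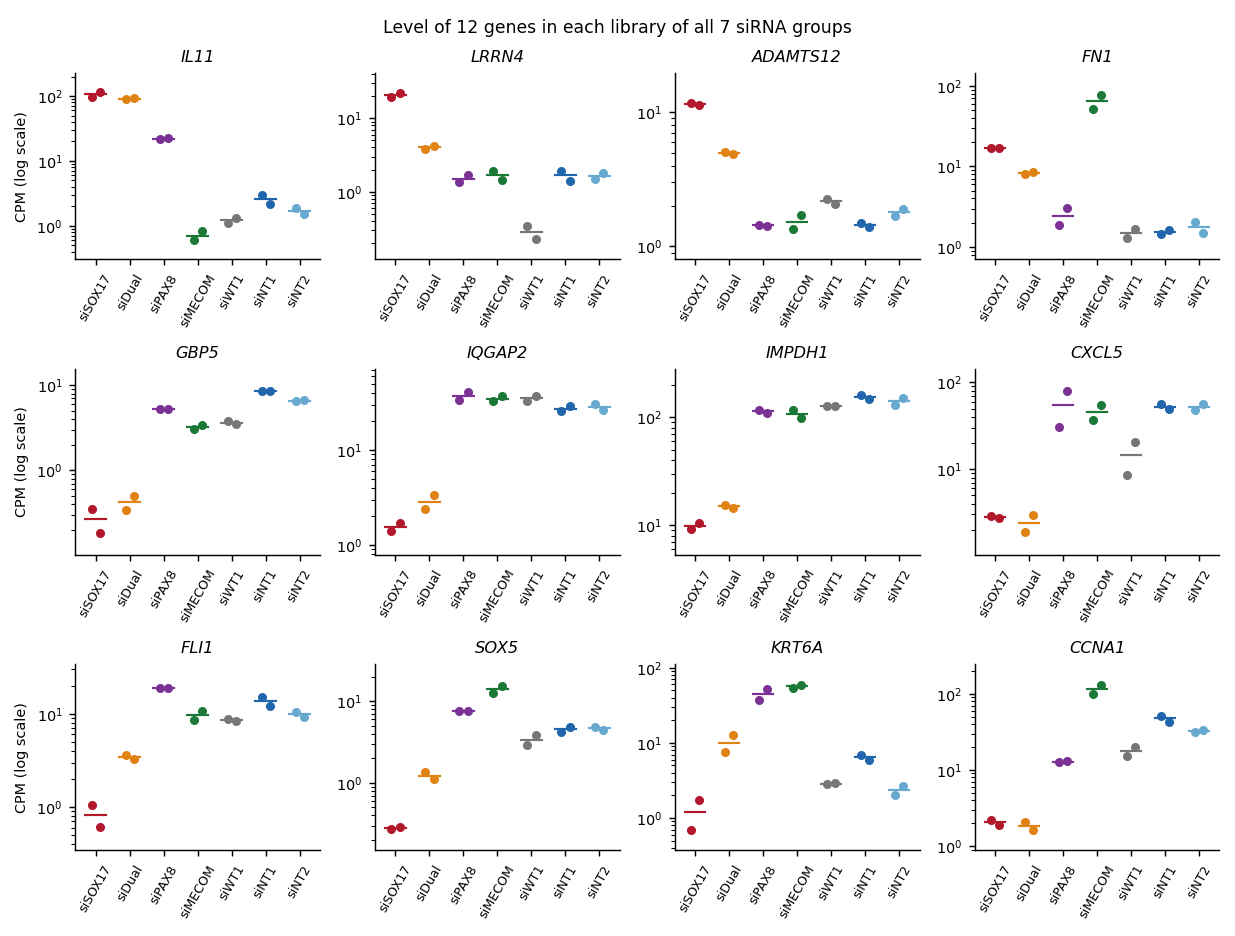
Level of 12 genes in CPM (log axis, a separate range for each gene) in the 2 libraries of each of the 7 siRNA groups, with siSOX17 at the left and the control pools at the right; a bar is the mean of a group. LRRN4 and ADAMTS12 are highest in siSOX17, FN1 is highest in siMECOM, and CCNA1 is low in siSOX17 and siDual, the group given the PAX8 and SOX17 pools together.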

How the data were processed

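RNA-seq read counts per gene were deposited by the authors as a table of whole numbers for 58219 genes in 14 libraries. Reads were aligned with STAR 2.5.1b to hg38 and counted with featureCounts 1.6.3, per the submitters' processing notes; the annotation, strand setting and filters are not given in the sources used here. Names were matched to GENCODE 29 by identifier. Genes were kept by edgeR's filterByExpr (minimum count 10, minimum total 15), which left 21032. With edgeR 4.0.16 (R 4.3.3), counts were scaled by TMM and fitted by quasi-likelihood over all 7 groups, with 7 residual degrees of freedom. Contrasts set siSOX17 against the mean of siNT1 and siNT2, against siPAX8 and against siMECOM, and siNT1 against siNT2. Genes were called at a Benjamini-Hochberg adjusted p under 0.05. The SE of a log2 fold change was derived from the test, as its absolute value over the square root of the F statistic. The text names the targeted genes, protein-coding genes with the largest called changes among those whose log2 CPM averaged 1 or more, with no overlap between siSOX17 and control libraries, and examples from gene lists, which have no such floor. Members and lists were chosen with earlier results of these data known, and examples from lists after their values were seen. A few genes under that rule are left out of the text. Alternatives included DESeq2 1.42.0. The test was checked on simulated data.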

Additional observations from a re-analysis of the deposited data

How the results depend on the processing

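The number of genes called between siSOX17 and the controls was 11069, lay between 8967 and 11208 when 1 library was left out, and between 9808 and 11600 under the other settings. Against siPAX8 the ranges were 6131 to 7981 and 7163 to 8605, and against siMECOM 8172 to 10347 and 9258 to 10798. Of the 11069 genes, 6665 (60.2%) were called the same way under every setting. Genes higher by at least 2-fold numbered 1139 with a filter of 1 CPM in 2 libraries, in place of 1755, since fewer low genes were tested. Between siNT1 and siNT2, 63 genes were called, 153 with DESeq2, 232 with no filter, 150 with a replicate block and 11 to 77 with 1 library left out; the cause was not tested. Of 6982 values of single genes under other settings, 6858 kept their direction and call, 123 lost the call and 1 reversed, that of ANKRD1 against siNT2 alone (log2 fold change 0.0006785, adjusted p = 0.996 in edgeR). Same-numbered libraries of siSOX17, siNT1 and siNT2 correlated at 0.0696 to 0.337 after subtraction of group means, and those of all 21 pairs of groups at -0.0998 to 0.496, with 13 over 0.1. Most of these correlations were positive. Since not every pair was over 0.1, the main fit did not pair libraries by number. A replicate effect was not tested beyond a fit with a replicate block. The fit with the replicate block called 11600 genes against the controls, 8605 against siPAX8 and 10798 against siMECOM. With 2 libraries a group and a single pool for each target, effects of the pool on other transcripts cannot be told apart from those of SOX17.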

Other observations

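Called genes were spread unevenly over gene classes and chromosomes. Of 14708 protein-coding genes tested, 29.9% were higher in siSOX17 and 29.9% lower. Of 3954 long non-coding RNA genes 24% were higher and 17.5% lower, and of 1668 pseudogenes 12.9% and 9.83%. Protein-coding genes of chromosome 19 were lower more often than higher (33.2% and 20.5% of 1152), and those of chromosome 22 likewise (36.1% and 23.1%), while those of the X chromosome were higher in 34% and lower in 24.5%. These shares are descriptions of the same calls and were not tested.

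Counts of several non-coding RNAs changed with those of a gene that they overlap. SENCR, which lies over FLI1 on the opposite strand, had a log2 fold change of -4.61 ± 0.29, and FLI1 one of -3.8 ± 0.19. NKILA, which overlaps PMEPA1, rose by 2.82 ± 0.15. KRT7-AS, opposite KRT7, averaged 1018 CPM in siSOX17 and 392 CPM in the controls and rose by 1.38, and KRT7 rose by 1.39. AP001528.2, opposite PRSS23, stood at -0.21 (adjusted p = 0.651) where PRSS23 rose by 2.92. It was near the detection floor, at 0.281 CPM in siSOX17 and 0.367 CPM in the controls, too low to be read against PRSS23. The strand setting of the counting was not stated, so reads of each pair cannot be told apart. The same reads may be counted for both genes of a pair, and their changes are not read as separate observations.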
